A study of Mus musculus with 2 samples.

Results

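The genes described here are 40 mouse interferon-stimulated effectors and sensors of foreign nucleic acid, chosen by gene symbol. They take in the IFIT, IFITM, Mx and GBP families, the ISG15 conjugation genes, the interferon-induced PARP and TRIM genes and the cytosolic and endosomal sensors with their adaptors, while OAS, STAT and IRF genes were left out of the choice. Each symbol matched 1 of the 54713 rows of the count table. By role, 8 members are sensors or adaptors, 4 are IFIT genes, 3 are enzymes that act on RNA, 4 belong to ISG15 conjugation, 4 to the PARP group, 2 are TRIM ubiquitin ligases, 5 are Mx or GBP GTPases, 4 are membrane restriction factors and 6 are other interferon-stimulated genes. The name RNA sensors covers most of the sensor group but not Mb21d1 and Tmem173, which serve the sensing of DNA.

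RNA was sequenced from 2 stable lines of SV40 MES13, a mouse kidney mesangial cell line transformed with SV40. The AI662270 line had been infected with a lentivirus that expresses the long non-coding RNA AI662270, and its genotype is given as overexpression of that RNA. The control line had been infected with the control lentivirus, and its genotype is given as WT. Both lines carry a lentivirus, both were selected with 0.5 mg/ml puromycin and kept in 0.25 mg/ml puromycin with 10% serum, and both are labelled untreated. The labels' account of how the lines were made also speaks of stable expression of Sox9 and does not describe the insert of the virus clearly, so what the lines were made to express rests on the titles, the genotypes and the AI662270 counts. Each condition is 1 line and 1 library, so there is no replicate error, and a difference between the libraries cannot be told apart from a difference between 2 separately selected lines. Whether a line was a clone or a pool is not given in the sources used here.

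Type I interferons bind a receptor at the cell surface, whose kinases activate transcription factors that bind the interferon-stimulated response element in the promoters of their target genes. Many of the products block viral RNA, translation or entry, and some, such as RIG-I and MDA5, are themselves sensors of viral RNA that lead to more interferon through MAVS. Resting cells keep a low level of many of these transcripts, and mesangial cells, which support the capillaries of the kidney glomerulus, can make them when exposed to viral RNA or interferon.

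The tables hold 15062482 counts in the AI662270 library and 15727023 in the control library. AI662270 itself (chr11:83223576-83226604 in mm10, the build of all gene positions here) had 241 counts in the AI662270 library and 0 in the control library, which puts the AI662270 library at least 78.4-fold higher when the control is set to a floor of 3 counts, with an exact interval for the ratio from 63.3. Of 12 mesangial markers, 7 reached a mean of 1 CPM (counts per 1000000 of the TMM-scaled library) and their sum over all 12 was 60.8 CPM in the AI662270 library and 47.5 CPM in the control library. Of these 7, Gata3 and Serpine2 were lower, with 25 and 10 counts in the AI662270 library and 76 and 28 in the control library, and Acta2, smooth muscle actin, was higher, with 171 counts in the AI662270 library and 12 in the control library. Pdgfrb, the PDGF receptor of mesangial cells, had 338 counts in the AI662270 library and 185 in the control library, while the markers Itga8 and Thy1 were at 0 in both. Of 10 immune cell markers, 3 were at 0 in both libraries (Adgre1, Itgam and Cd3e), Ptprc had 1 count in the AI662270 library and 5 in the control library, and the 10 summed to 15.2 CPM in the AI662270 library and 34.5 CPM in the control library. Most of that sum was Csf1r, the CSF-1 receptor, with 150 counts in the AI662270 library and 419 in the control library; the part of these markers in the results was not tested. Of 7 tubule markers, 3 were at 0 in both, but Lrp2 had 47.5 CPM in the AI662270 library and 45.6 CPM in the control library and Cubn had 4.69 CPM in the AI662270 library and 2.17 CPM in the control library. None of 6 endothelial markers reached 1 CPM.

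Among the 40 members, 39 reached a mean of 1 CPM and were measured. Of these, 14 were lower in the AI662270 library, which is 35.9%, against 5.72% of all 13268 measured genes; a gene was called where its CPM differed by at least 2-fold after adding 0.5 CPM on both sides and the ratio's exact 95% interval did not hold 1. None of the 39 was higher by this rule, against 5.59% of measured genes. The median log2 ratio of the members, AI662270 over control, was -0.60, with a range of -2.01 to 0.92, and that of all measured genes was -0.02. Together the members held 52638 counts in the AI662270 library and 80038 in the control library, or 3378 CPM in the AI662270 library and 5264 CPM in the control library, a 1.56-fold lower sum (interval 1.54 to 1.58). The remaining 25 measured members did not pass the rule, and Ifitm1 had 0 counts in both libraries. The upper 95% limit of its level was 0.237 CPM in the AI662270 library and 0.243 CPM in the control library. Reads were counted without molecular identifiers, so these intervals and limits reflect counting error and nothing more. Fewer cells with these transcripts and less of the transcripts per cell cannot be told apart in bulk RNA.

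The size of the difference varied widely from member to member. On the scale with 0.5 CPM added, at least 3-fold lower were 6 members (15.4%, against 1.97% of all measured genes) and none was 3-fold higher (against 1.86%). A further 8 were 2-fold to 3-fold lower, 6 had ratios of 1.5-fold to 2-fold below the control, 14 had ratios below the control by less than 1.5-fold, and 5 had ratios above 1. In all, 34 of the 39 (87.2%) had a ratio below 1, against 51.3% of measured genes. The counting interval lay below 1 for 32 members, above 1 for 3 and held 1 for 4; at this depth such an interval lay below 1 for 35.8% and above 1 for 31.9% of all measured genes. In the authors' deposited table, which compares the same 2 libraries, 9 of the 39 members had an adjusted p-value under 0.05 and all 9 were lower, against 2.13% of the 20667 genes with a value; none was higher, against 2.21%.

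**Figure D1:**
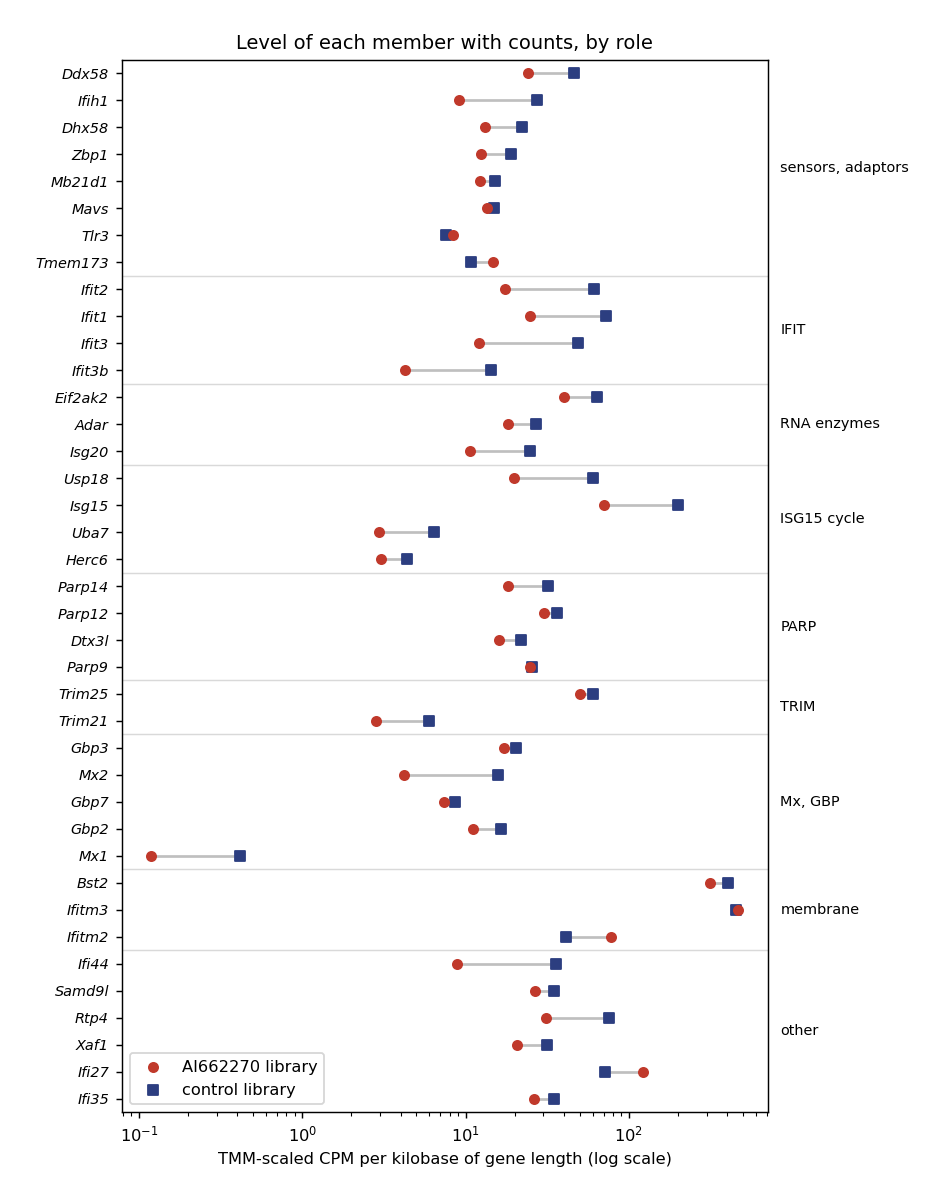
Level of each of the 39 members with counts, as TMM-scaled CPM per kilobase of gene length on a log axis, with members grouped by role; red circles are the AI662270 library and blue squares the control library, 1 library each. The 4 IFIT genes, Isg15, Usp18, Ifi44 and Mx2 show wide gaps with the AI662270 library to the left, whereas Ifitm2, Ifi27 and Tmem173 have it to the right.

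Several members that were lower hold the core of the interferon-stimulated response element in their promoters. A window of 300 bases, from 250 before to 50 after the transcript start, was taken from RefSeq (mouse build GRCm38.p6) and searched on both strands for GAAANNGAAA, the core of the element. The windows of Ifit1 (chr19:34640639-34640938, plus strand), Ifit3 (chr19:34583279-34583578, plus strand), Ifit3b (chr19:34607707-34608006, plus strand) and Isg15 (chr4:156200769-156201068, minus strand) are shown because these transcripts were all lower in the AI662270 library. Each is written 5′ to 3′ on the strand of its gene, with the bases of a match in capitals; in the 3 IFIT windows the element lies on the opposite strand and reads as its reverse complement.
Ifit1: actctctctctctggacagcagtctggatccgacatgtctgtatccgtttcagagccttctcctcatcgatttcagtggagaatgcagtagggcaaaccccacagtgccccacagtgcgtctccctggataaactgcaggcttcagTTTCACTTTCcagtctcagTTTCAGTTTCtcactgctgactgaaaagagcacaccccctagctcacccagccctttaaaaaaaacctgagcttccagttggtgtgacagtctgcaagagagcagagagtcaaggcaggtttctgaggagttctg
Ifit3: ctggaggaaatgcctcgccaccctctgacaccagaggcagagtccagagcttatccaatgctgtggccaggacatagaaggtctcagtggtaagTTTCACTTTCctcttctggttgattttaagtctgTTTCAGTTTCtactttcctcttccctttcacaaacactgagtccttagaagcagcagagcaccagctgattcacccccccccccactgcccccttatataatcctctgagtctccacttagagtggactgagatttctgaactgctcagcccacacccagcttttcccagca
Ifit3b: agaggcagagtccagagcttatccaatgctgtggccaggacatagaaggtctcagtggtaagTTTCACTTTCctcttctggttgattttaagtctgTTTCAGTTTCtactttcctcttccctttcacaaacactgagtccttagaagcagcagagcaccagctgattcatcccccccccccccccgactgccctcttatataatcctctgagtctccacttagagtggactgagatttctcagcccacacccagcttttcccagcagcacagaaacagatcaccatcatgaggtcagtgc
Isg15: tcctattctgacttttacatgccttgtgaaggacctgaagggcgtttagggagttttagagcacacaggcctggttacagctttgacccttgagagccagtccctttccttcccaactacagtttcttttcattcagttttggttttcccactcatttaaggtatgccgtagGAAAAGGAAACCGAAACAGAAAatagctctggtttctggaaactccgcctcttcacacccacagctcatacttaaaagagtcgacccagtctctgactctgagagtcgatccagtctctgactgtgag

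Ifit1 had its matches 104 and 85 bases before the start. Ifit3 had them 156 and 122 bases before it, and Ifit3b 188 and 154 bases before it. The windows of Ifit3 and Ifit3b share an unbroken run of 169 bases that holds both matches, so these neighbours are not independent examples. Isg15, whose product is a small ubiquitin-like protein, had 3 overlapping matches that begin 78, 72 and 66 bases before the start.

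A match did not go with a lower level in every member, and some members were lower without a match in this window. The search took exact letters only, so stretches that come close to the core were not counted. The window of Ifih1 (chr2:62646206-62646505, minus strand), which encodes the RNA sensor MDA5 and was lower, has its 1 match 32 bases after the start. That of Ifitm3 (chr7:141010695-141010994, minus strand), a membrane protein that blocks virus entry and whose ratio was close to 1, has matches beginning at base 2 and base 19 after the start. Ifi44 (chr3:151749861-151750160, minus strand), whose ratio was the lowest of all members, has no match in its window. Capitals again mark the matches.
Ifih1: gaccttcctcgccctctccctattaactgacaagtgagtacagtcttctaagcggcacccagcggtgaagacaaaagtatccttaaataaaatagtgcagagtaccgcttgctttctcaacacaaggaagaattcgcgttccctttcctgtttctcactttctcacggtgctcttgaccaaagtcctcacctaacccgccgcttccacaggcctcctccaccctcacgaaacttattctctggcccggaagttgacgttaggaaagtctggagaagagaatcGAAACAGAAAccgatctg
Ifitm3: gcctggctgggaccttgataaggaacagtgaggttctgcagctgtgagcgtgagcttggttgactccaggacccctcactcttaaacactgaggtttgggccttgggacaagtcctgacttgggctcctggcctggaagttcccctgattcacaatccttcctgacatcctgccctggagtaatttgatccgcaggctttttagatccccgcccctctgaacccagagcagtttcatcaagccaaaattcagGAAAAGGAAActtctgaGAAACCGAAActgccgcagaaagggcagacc
Ifi44: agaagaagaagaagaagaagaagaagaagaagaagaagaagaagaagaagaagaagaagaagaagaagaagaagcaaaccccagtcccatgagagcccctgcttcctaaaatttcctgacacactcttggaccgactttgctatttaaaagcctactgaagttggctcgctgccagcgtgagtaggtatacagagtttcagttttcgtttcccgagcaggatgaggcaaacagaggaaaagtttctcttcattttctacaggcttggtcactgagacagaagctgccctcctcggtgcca

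At least 1 RefSeq window was found for 30 of the 40 members, 29 by their own symbol and Mb21d1 under its newer name Cgas; the 10 without an entry were Usp18, Mx1, Mx2, Dhx58, Tmem173, Ifi27, Rtp4, Zbp1, Parp9 and Parp14. For 15 of the 30, the bases after the start in a window were also found near the beginning of the member's longest GENCODE M21 transcript. For the others they were not, so those windows may not lie at the start of that transcript. Some genes have several windows, and a gene was counted once if any of its windows held a match. The core was present in 14 of the 30 members (46.7%), against 3.99% of all 27025 genes in the table; counted by window, it was in 3.44% of all 32851. With a C after the core, GAAANNGAAAC, it was present in 12 of the 30 (40%), against 0.944% of all genes. The core of the gamma-activated site, TTCNNNGAA, was present in 8 of the 30 (26.7%), against 9.55% of all genes, and in 2 members it overlapped a match of the response element. Among measured members with a window, 6 of the 14 with the core were lower, with a median log2 ratio of -0.80 and a range of -1.99 to 0.92. Of the 15 without it, 4 were lower, with a median of -0.43 and a range of -2.01 to 0.14. The ranges overlap along most of their length. A match describes letters in a window and is not a bound site.

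The sensors and adaptors read foreign nucleic acid, and 1 of the 8, Ifih1, was lower. Ifih1 (chr2:62595798-62646255), which encodes MDA5, the sensor of long double-stranded RNA, had 75.0 CPM (1168 counts) in the AI662270 library and 222 CPM (3375 counts) in the control library, a 2.96-fold lower level (interval 2.77 to 3.17). Ddx58 encodes RIG-I, the sensor of short RNA with a triphosphate end, and was the most abundant of the sensors per kilobase in both libraries, at 24.0 CPM per kilobase in the AI662270 library and 46.3 in the control library. Its 169 CPM in the AI662270 library stood against 326 CPM in the control library, a ratio 1.93-fold below the control (interval 1.84 to 2.02), just short of the rule. Dhx58 encodes LGP2, a relative of both that lacks the signalling domain, and had 43.1 CPM in the AI662270 library and 73.0 CPM in the control library, 1.70-fold below the control (1.54 to 1.87). All 3 genes of this helicase family thus had intervals below 1, and only Ifih1 among them passed the 2-fold rule.

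The other sensors and the adaptors lay closer together in the libraries. Zbp1, a sensor of nucleic acid in the Z form, had 43.9 CPM in the AI662270 library and 66.7 CPM in the control library, 1.52-fold below the control (1.38 to 1.68). Mb21d1, which encodes the DNA sensor cGAS, had 50.8 CPM in the AI662270 library and 62.6 CPM in the control library, 1.23-fold below the control (1.12 to 1.35). The transcripts for both of these sensors had intervals below 1 without reaching 2-fold. Mavs, the mitochondrial adaptor below RIG-I and MDA5, had 45.6 CPM in the AI662270 library and 49.9 CPM in the control library, and the interval of its ratio, 0.823 to 1.01, held 1. Tlr3, the endosomal receptor for double-stranded RNA, had 43.4 CPM in the AI662270 library and 39.4 CPM in the control library, with an interval of 0.987 to 1.23 that also held 1. Tmem173, which encodes STING, the adaptor below cGAS, was at 33.8 CPM in the AI662270 library and 24.7 CPM in the control library, a ratio of 1.37 (interval 1.20 to 1.57). The 8 genes of this group summed to 505 CPM in the AI662270 library and 865 CPM in the control library, and their median log2 ratio was -0.45.

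All 4 IFIT genes, which lie side by side at chr19:34550694-34650009, were lower. Their proteins bind viral RNA, and that of Ifit1 recognises RNA whose cap lacks a methyl group and keeps it from being translated. Ifit1 had 65.9 CPM (1027 counts) in the AI662270 library and 191 CPM (2907 counts) in the control library, a 2.90-fold lower level (interval 2.70 to 3.12). Ifit2 had 68.6 CPM (1069 counts) in the AI662270 library and 239 CPM (3637 counts) in the control library, 3.49-fold lower (3.26 to 3.74). Ifit3, whose human counterpart stabilises the binding of IFIT1 to RNA, had 21.2 CPM (330 counts) in the AI662270 library and 85.6 CPM (1302 counts) in the control library, 4.04-fold lower (3.58 to 4.58). Its copy Ifit3b had 8.54 CPM (133 counts) in the AI662270 library and 28.7 CPM (437 counts) in the control library, 3.37-fold lower (2.77 to 4.12). Of the windows of 50 bases along the longest Ifit3 transcript, 51.2% also occur in Ifit3b, so how counts were split between these genes is uncertain, though both had fewer counts in the AI662270 library. Summed, the family had 164 CPM in the AI662270 library and 545 CPM in the control library, 3.32-fold lower (3.17 to 3.47), with a median log2 ratio of -1.74. In the authors' deposited table the adjusted p-values were 0.0102 for Ifit1, 0.00136 for Ifit2, 0.000287 for Ifit3 and 0.00387 for Ifit3b.

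Of the 3 enzymes that act on RNA, Isg20 was lower. It encodes an exonuclease that degrades single-stranded RNA, and had 19.7 CPM (307 counts) in the AI662270 library and 45.8 CPM (697 counts) in the control library, 2.33-fold lower (2.03 to 2.67). Eif2ak2 encodes PKR, the kinase that stops translation on binding double-stranded RNA; its 206 CPM in the AI662270 library stood against 326 CPM in the control library, 1.58-fold below the control (1.51 to 1.66). Adar encodes the enzyme that edits adenosine to inosine in double-stranded RNA and so keeps self RNA from being sensed; it had 147 CPM in the AI662270 library and 219 CPM in the control library, 1.49-fold below the control (1.41 to 1.57). Both intervals excluded 1, and neither gene reached 2-fold.

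ISG15 is a small protein that is joined to other proteins as ubiquitin is, and 3 of the 4 genes of its cycle were lower. Isg15 (chr4:156199424-156200818) had 53.1 CPM (828 counts) in the AI662270 library and 151 CPM (2299 counts) in the control library, 2.85-fold lower (2.63 to 3.08). Per kilobase it was number 5 among the members in the AI662270 library, at 70.3 CPM per kilobase, and number 3 in the control library, at 200.02 CPM per kilobase. Usp18 (chr6:121245906-121270917), the protease that takes ISG15 off and also restrains signalling by the interferon receptor, had 55.3 CPM (861 counts) in the AI662270 library and 168 CPM (2549 counts) in the control library, 3.03-fold lower (2.81 to 3.28). The gene for the activating enzyme, Uba7, had 19.7 CPM (307 counts) in the AI662270 library and 43.0 CPM (654 counts) in the control library, 2.18-fold lower (1.90 to 2.51). Herc6, the main ISG15 ligase of the mouse, had 28.3 CPM in the AI662270 library and 40.7 CPM in the control library, 1.44-fold below the control (1.27 to 1.63). Thus the modifier, its activating enzyme and its protease passed the rule and the ligase did not. Uba7 lost its call with FPKM values after 0.5 FPKM was added to both libraries, at a log2 ratio of -0.98. DESeq2 size factors put both libraries on the same total as the FPKM values. With them and 0.5 CPM added, Uba7 kept its call at -1.07. The 4 genes together had 156 CPM in the AI662270 library and 403 CPM in the control library, 2.57-fold lower (2.46 to 2.70). The authors' deposited table gave adjusted p-values of 0.0127 for Isg15 and 0.00648 for Usp18.

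**Figure D2:**
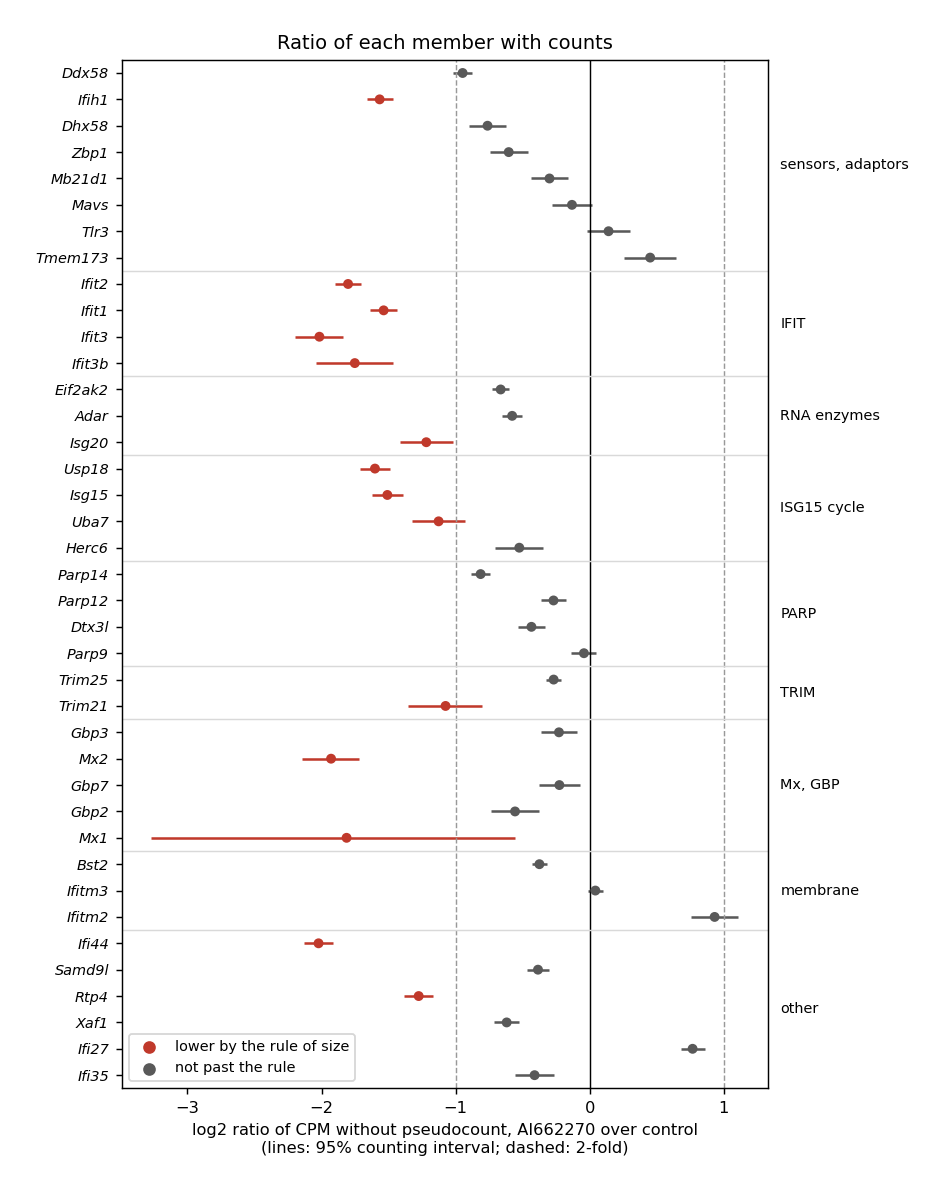
Log2 ratio of CPM without a pseudocount, AI662270 over control, for the 39 members with counts, grouped by role; points are the 2 libraries' ratio, lines the exact 95% counting interval and dashed lines 2-fold. The 14 members in red passed the rule of size and all lie to the left of 0; Mx1, with 7 counts in the AI662270 library and 24 in the control library, has by far the widest interval.

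None of the 4 genes of the PARP group passed the rule. Parp14, a mono-ADP-ribosyltransferase, had 170.4 CPM in the AI662270 library and 299 CPM in the control library, 1.76-fold below the control (1.67 to 1.84). Parp12, another such enzyme, which binds RNA through zinc fingers, had 120 CPM (1869 counts) in the AI662270 library and 145 CPM (2198 counts) in the control library, 1.21-fold below the control (1.13 to 1.28). Parp9 and Dtx3l encode the 2 partners of one ubiquitin ligase complex and overlap each other on opposite strands. Parp9 had 120 CPM (1874 counts) in the AI662270 library and 124 CPM (1883 counts) in the control library, and the interval of its ratio, 0.910 to 1.04, held 1. Dtx3l had 92.2 CPM in the AI662270 library and 125 CPM in the control library, 1.35-fold below the control (1.26 to 1.45). Since no source used here states that strand was used in counting, reads from their shared stretch cannot be told apart. The group's median log2 ratio was -0.35.

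In the TRIM pair, Trim21 was lower and Trim25 was not. Trim21 encodes a cytosolic antibody receptor and ubiquitin ligase, and had 10.5 CPM (163 counts) in the AI662270 library and 22.0 CPM (335 counts) in the control library, 2.11-fold lower (1.74 to 2.56). That call is near the limit. Total-count scaling, upper-quartile scaling, a 2 CPM pseudocount and FPKM values with 0.5 FPKM added each put its log2 ratio short of 2-fold. Trim25 encodes a ligase of the RIG-I pathway, and had 289.7 CPM (4514 counts) in the AI662270 library and 349 CPM (5305 counts) in the control library, 1.20-fold below the control (1.16 to 1.25).

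Among the members, the calls of the GTPases divided by family. Mx2 (chr16:97535308-97560900), whose mouse product acts against viruses that replicate in the cytoplasm, had 15.1 CPM (235 counts) in the AI662270 library and 57.4 CPM (873 counts) in the control library, 3.81-fold lower (3.29 to 4.42); the table gives its biotype as polymorphic pseudogene, which marks a gene intact in some strains only. Mx1, the nuclear relative that blocks influenza virus, had 7 counts in the AI662270 library and 24 in the control library, 3.51-fold lower with an interval from 1.47 to 9.66, and it was the least abundant measured member per kilobase in both libraries. Its mean fell below 1 CPM under total-count scaling. Mx1 lost its call with a 2 CPM pseudocount, with FPKM values after 0.5 FPKM was added, and with centring on its chromosome's median. Of the guanylate-binding proteins, which coat vacuoles that hold microbes, Gbp2 had 28.0 CPM in the AI662270 library and 41.2 CPM in the control library, 1.47-fold below the control (1.30 to 1.67). Gbp3 had 56.4 CPM in the AI662270 library and 66.1 CPM in the control library, 1.17-fold below the control (1.07 to 1.28). The values of Gbp7 were 41.5 CPM in the AI662270 library and 48.5 CPM in the control library, 1.17-fold below the control (1.05 to 1.30). Both Mx genes passed the rule and none of the 3 GBP genes did. Of the transcript windows of Mx2, 6.55% also occur in Mx1, and 4.77% of those of Mx1 occur in Mx2. How counts were split between the Mx genes is therefore uncertain, which weighs most on the few counts of Mx1. Whether Mx1 was lower apart from Mx2 was not tested. Other GBP genes in the pathway lists are named here after their values were seen. Gbp4 passed the rule, 2.35-fold lower (1.98 to 2.81), and Gbp5, Gbp6, Gbp9 and Gbp10 did not. The division by family therefore holds among the members only. The difference between the families was not tested.

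The membrane restriction factors include the 2 most abundant members per kilobase, and none passed the rule. Ifitm3, which keeps viruses from fusing in endosomes, came first in both libraries, at 467 CPM per kilobase in the AI662270 library and 453 in the control library; its ratio of 1.03 had an interval of 0.989 to 1.07. Bst2 encodes tetherin, which holds budding virus at the cell surface, and came second in both, at 313 CPM per kilobase in the AI662270 library and 406 in the control library, 1.30-fold below the control (1.25 to 1.35). Ifitm2, a close relative of Ifitm3, had 51.2 CPM (798 counts) in the AI662270 library and 26.8 CPM (408 counts) in the control library, a ratio of 1.91 (1.69 to 2.16), just short of the rule. Of its 50-base windows, 48.5% occur in transcripts of other genes, 36.1% in Gm45717, so its count is uncertain. Ifitm1, which lies between them on the chromosome, had no counts. The group had 650 CPM in the AI662270 library and 700.4 CPM in the control library, 1.08-fold below the control (1.05 to 1.11). This was the smallest difference in summed level of any role, with Bst2 below the control and Ifitm2 above it.

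Of the 6 other interferon-stimulated genes, Ifi44 and Rtp4 were lower. Ifi44 (chr3:151730922-151749960), which encodes an interferon-induced protein of the cytoplasm, had 54.2 CPM (845 counts) in the AI662270 library and 220.3 CPM (3349 counts) in the control library, 4.06-fold lower (3.77 to 4.39), and its log2 ratio of -2.01 was the lowest of all members. Rtp4 (chr16:23520291-23614222), a chaperone that carries receptors to the cell surface, had 66.2 CPM (1032 counts) in the AI662270 library and 160.3 CPM (2437 counts) in the control library, 2.42-fold lower (2.25 to 2.61); 13.7% of its windows occur in Gm45338, which it overlaps. The authors' deposited table gave adjusted p-values of 0.000217 for Ifi44, 0.000696 for Mx2 and 0.00807 for Ifih1, the remaining members under 0.05.

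Ifi27 went the other way without reaching the rule. It encodes a small hydrophobic protein, and had 179 CPM (2789 counts) in the AI662270 library and 105 CPM (1598 counts) in the control library, a ratio of 1.70 (1.60 to 1.81). It lies on chromosome 12, whose measured genes had the lowest chromosome median, -0.35, and centring on that median makes it the 1 member higher by the rule. Xaf1, which opposes the apoptosis inhibitor XIAP, had 96.8 CPM in the AI662270 library and 149 CPM in the control library, 1.54-fold below the control (1.44 to 1.64). Samd9l, a restriction factor for poxviruses, had 145 CPM in the AI662270 library and 189 CPM in the control library, 1.31-fold below the control (1.24 to 1.38). Ifi35, a leucine zipper protein, had 45.4 CPM in the AI662270 library and 60.3 CPM in the control library, 1.33-fold below the control (1.20 to 1.47). These last 3 had intervals below 1 and none reached 2-fold.

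Members were lower at high levels as well as at low ones. At a mean of at least 50 CPM, 8 of 26 members (30.8%) were lower, against 5.20% of the 5152 measured genes at that level, and 0 were higher, against 1.30%. Their median log2 ratio was -0.61, against -0.09 for all genes at that level. Members were also more deeply counted than most genes: the median over measured members was 54.2 CPM in the AI662270 library and 105 CPM in the control library, whereas the median of the mean level over all measured genes was 33.6 CPM.

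**Figure D3:**
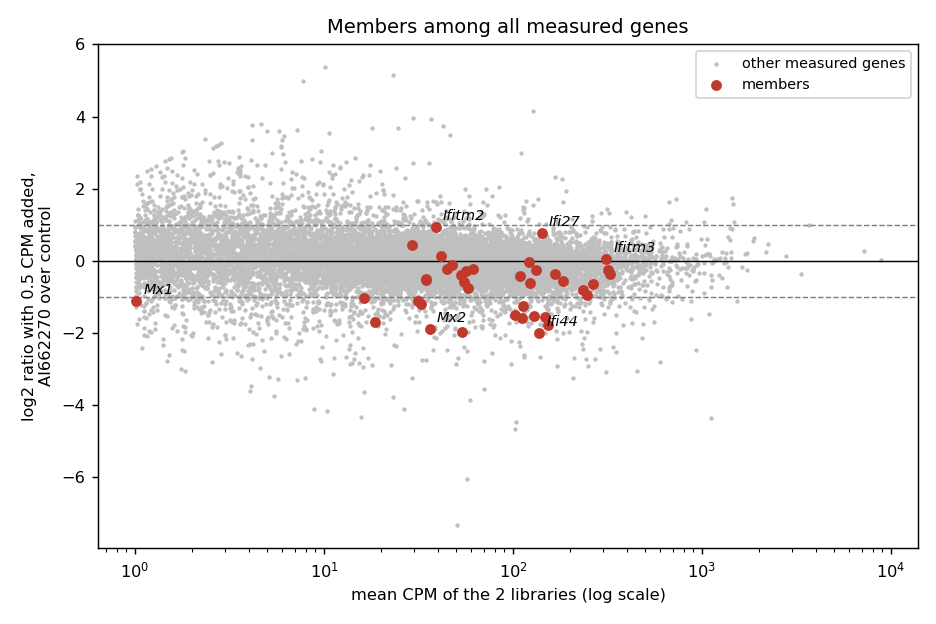
Log2 ratio with 0.5 CPM added, AI662270 over control, against the mean CPM of the 2 libraries on a log axis for 13268 measured genes (grey) and the 39 measured members (red); dashed lines are 2-fold. Most members lie below 0 over the whole range of levels, with Ifitm2 and Ifi27 the highest and Ifi44 the lowest.

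The members lie on 13 chromosomes, whose median log2 ratios ran from -0.35 to 0.06, and several are neighbours. The IFIT genes span 99.3 kb of chromosome 19, with Ifit1bl2, a further IFIT gene that is no member, among them at -0.73. The measured genes on either side of the run were Lipa at 0.50 and Pank1 at 0.78. In the run of 3 GBP genes on chromosome 3, which spans 108 kb, the log2 ratios were -0.22 for Gbp7, -0.23 for Gbp3 and -0.55 for Gbp2, with Gbp5 at -0.67 before it and Kyat3 at 0.78 after it. On chromosome 16, Parp14, Dtx3l and Parp9 span 140 kb and had log2 ratios of -0.81, -0.43 and -0.04; their neighbours outside the pathway, Hspbap1 and Kpna1, had -0.92 and -0.64. In that last stretch the genes beside the members had ratios as low as the members themselves, which was not so for the IFIT run.

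**Figure D4:**
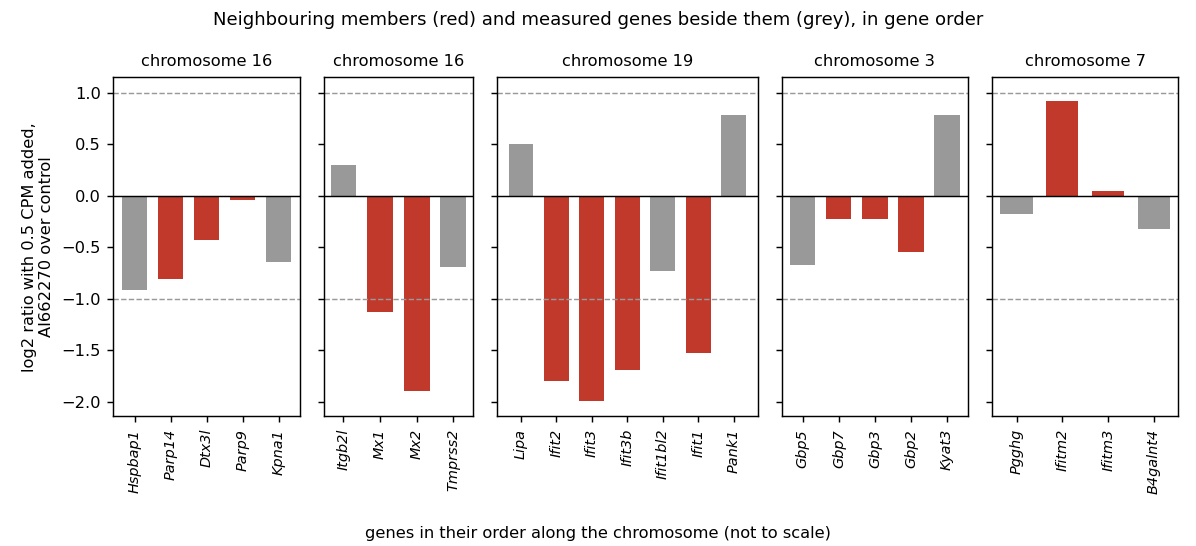
Log2 ratio with 0.5 CPM added, AI662270 over control, of neighbouring measured members (red) and of measured genes within or beside their runs (grey), in gene order along the chromosome and not to scale; dashed lines are 2-fold. The 4 IFIT members on chromosome 19 lie between -1.53 and -1.99 while the flanking genes Lipa and Pank1 lie above 0.

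The pathway around the members was read from lists that hold no member. The 20 interferon genes themselves had 0 counts in the AI662270 library and 20 in the control library, so none reached 1 CPM. With the AI662270 library set to a floor of 3 counts, this sum is 6.83-fold lower there, and the exact interval starts at 5.06-fold. Ifnb1, the type I interferon that most cell types can make, had 0 counts in the AI662270 library and 9 in the control library, and Ifnl2, a type III interferon, had 0 in the AI662270 library and 6 in the control library. The other two with any count, named after their values were seen, were Ifna4 with 0 in the AI662270 library and 4 in the control library and Ifnl3 with 0 in the AI662270 library and 1 in the control library. These single-gene counts lie at or near the floor.

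Of 20 receptor, JAK, STAT and IRF genes, all measured, 1 was lower and 0 were higher, a share near the 5.72% of all measured genes that were lower, with a median log2 ratio of -0.02. The 1 was Stat2, part of the complex that binds the response element, with 105 CPM (1638 counts) in the AI662270 library and 221 CPM (3366 counts) in the control library, 2.11-fold lower (1.98 to 2.24); total-count scaling and centring on the chromosome median each ended that call. Among 19 measured genes of signalling below the sensors, none passed the rule in either direction and the median was -0.22; the most abundant were Pcbp2, which brings about the breakdown of MAVS, at 367 CPM in the AI662270 library and 439 CPM in the control library, and Rela, an NF-kappaB subunit, at 245 CPM in the AI662270 library and 348 CPM in the control library. Of 8 measured genes for enzymes that remove self nucleic acid, none passed it either and the median was -0.31; Samhd1, which breaks down deoxynucleotides, had 200.2 CPM in the AI662270 library and 247 CPM in the control library, and Skiv2l, an RNA helicase that works with the exosome, had 101 CPM in the AI662270 library and 91.9 CPM in the control library.

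Interferon-stimulated genes outside the 40 members include the OAS genes and others left out of the choice. Of 59 measured, 17 were lower and 1 was higher (against 5.72% and 5.59% of all measured genes), with a median log2 ratio of -0.52 and a range of -3.27 to 1.21. Rsad2, which encodes viperin, had 38.8 CPM (605 counts) in the AI662270 library and 379 CPM (5763 counts) in the control library, 9.76-fold lower (8.98 to 10.6), a wider gap than in any member. Cmpk2, a nucleotide kinase of mitochondria, had 20.5 CPM in the AI662270 library and 78.5 CPM in the control library, 3.82-fold lower, and Oas2, a synthase of the messenger that activates RNase L, had 13.9 CPM in the AI662270 library and 46.8 CPM in the control library, 3.36-fold lower. The 1 higher was Psmb9, an immunoproteasome subunit, with 63.1 CPM in the AI662270 library and 26.9 CPM in the control library, a ratio of 2.35 (2.09 to 2.64).

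**Figure D5:**
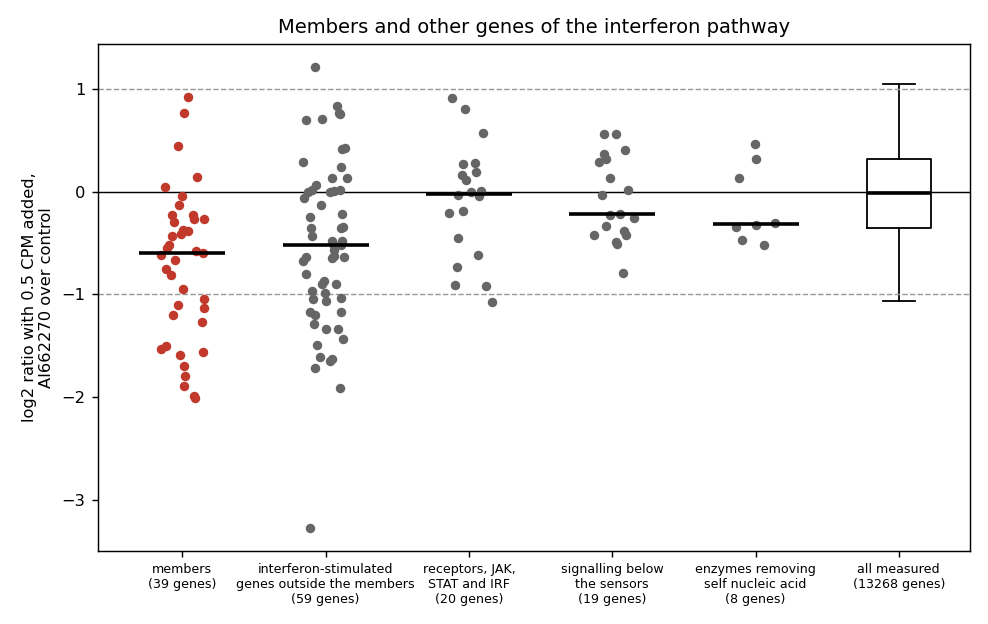
Log2 ratio with 0.5 CPM added, AI662270 over control, of each measured gene in the members (red) and in 4 other lists of the pathway (grey), with medians as black bars, beside a box of all 13268 measured genes (box: quartiles; whiskers: percentiles 5 and 95); dashed lines are 2-fold. The medians of the members and of the other interferon-stimulated genes, -0.60 and -0.52, are the lowest of the lists shown.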

How the data were processed

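RNA-seq of 1 library per condition was analysed. Per the labels, cells were mouse SV40 MES13 lines. The deposited table gives whole-number counts per gene, which the authors made with CASAVA 1.4 and TopHat2 on mm10, per the submitters' processing notes; neither the counting tool nor the use of strand is given in the sources used here. Per the labels polyA RNA was used, whereas the design text speaks of removing ribosomal RNA; both are left as stated. The deposited FPKM values divide the counts of both libraries by one total, 15391166, and serve as an alternative. Their log2 ratios had 0.5 FPKM added to both libraries, which weighs most on genes with low FPKM. The authors' deposited table also holds a log2 fold change and adjusted p-values between the same 2 libraries, whose method is not given in the sources used here. With 1 library on each side, these p-values cannot measure variation between lines, and they rest on the same counts as the ratios given here. The authors' control column carries a name that differs slightly from the sample's title. The table has 4 further columns of per-sample values that were not used.

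Of 54713 rows, 181 named no gene (0.136% of counts in the AI662270 library, 0.270% in the control library). These rows were kept in the totals, in the scaling and among all genes. They were left out when the genes beside runs of members were picked. Counts were scaled over all genes by TMM in edgeR 4.0.16 (factors 1.03 and 0.967) with R 4.3.3, giving CPM; ratios, intervals and motif matches were computed with scipy 1.17.1, pandas 2.3.3 and numpy 2.4.6 under Python 3.11.15 and drawn by matplotlib 3.10.9. Log2 ratios used a pseudocount of 0.5 CPM, so they understate the difference of low genes, while folds and exact Clopper-Pearson 95% intervals used none. Genes needed a mean of 1 CPM to be measured. With 1 library per condition no test between conditions was made. Calls were checked on simulated data that held counting error only. Such data cannot show how the calls stand against differences between lines or libraries. DESeq2 1.42.0 size factors, upper-quartile and total-count scaling were alternatives.

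The members and lists were chosen with earlier results of these data known. Every member is accounted for. From each other list the 3 called genes with the widest ratios are named, or the 2 most abundant where none was called. Exceptions are stated where they occur. A planned comparison of proteins within families was not made; windows of 50 bases shared between GENCODE M21 transcripts, chosen after seeing the data, took its place.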

Additional observations from a re-analysis of the deposited data

How the results depend on the processing

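No paired analysis was possible because each condition has 1 library. The number of members lower in the AI662270 library was 11 to 14 under the other scalings, pseudocounts, level minimums and FPKM values tried, where 3.93% to 6.46% of all genes were lower, and 20 at a 1.5-fold threshold, where 14.3% of measured genes were lower. It was 6 at a 3-fold threshold (1.97% of measured genes), because fewer members reach that size. Chosen after seeing the data, leaving out the members that share over 5% of their 50-base windows gave 9 of 30 (5.72% of measured genes), and keeping genes of at least 50 CPM gave 8 of 26 (5.20%). The number higher was 1 with total counts (Ifitm2), 1 centred on the chromosome median (Ifi27) and 2 at 1.5-fold (the same 2 genes). Mx1, Trim21 and Uba7 were the members that lost a call at 2-fold, Uba7 only with FPKM values after 0.5 FPKM was added. Parp9 was the member whose ratio changed side of 1, with total counts, upper quartile and chromosome centring. The median log2 ratio of the members ran from -0.49 with total counts to -0.61 at 50 CPM. The scalings moved the median of all genes between -0.02 and 0.08. With 1 library per condition, no value here has an error beyond counting, and at low counts, as for Mx1 and the interferon genes, that error is wide.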
